A study of Mus musculus with 2 samples.

Results

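Cells expressing the osteoclast genes Acp5 and Atp6v0d2 made up a small population of day 6 mouse skin wounds, 68 of the 8871 barcodes kept. A barcode was taken as Acp5+ Atp6v0d2+ where it held at least 3 UMIs of Acp5 and at least 3 of Atp6v0d2, with Col1a1, Col1a2 and Col3a1 together under 2% of its UMIs. A UMI is 1 captured transcript molecule, and a barcode is in most cases 1 cell. Kept barcodes had at least 500 UMIs, at least 200 genes and under 15% mitochondrial UMIs. The wounds were 10 mm full-thickness excisions on the back of male wild type C57BL/6 mice. The study set mice of 2 months (young) against mice of 24 months (aged), and its design names the senescence response of the wound as its subject. All wound cells were dissociated with collagenase and dispase, freed of red cells, passed through a strainer and run as 1 library per age. Several mice were pooled in each library, their number is not given in the sources used here, and both groups carried the same wound with no other treatment. Effects of age, of the animals pooled and of how a library was made therefore cannot be told apart, and there is no replicate from which a spread between animals could be taken. All intervals are exact 95% intervals that cover counting error only.

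Osteoclasts are multinucleated cells of the monocyte and macrophage lineage that resorb bone. They form when the cytokine RANKL (Tnfsf11) acts on its receptor RANK (Tnfrsf11a) in precursors kept alive by CSF1, which induces the transcription factor NFATc1, cell fusion through DC-STAMP and OC-STAMP, and a secretory programme. That programme includes tartrate-resistant acid phosphatase (Acp5), the d2 subunit of the vacuolar proton pump (Atp6v0d2), the collagen-cleaving protease cathepsin K (Ctsk) and the gelatinase MMP9. Macrophages that fuse into giant cells in soft tissue share part of these genes.

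In the young wound 52 of 4661 kept barcodes were Acp5+ Atp6v0d2+, a share of 1.12% (0.834 to 1.46). In the aged wound 16 of 4210 were, a share of 0.380% (0.217 to 0.616), so that the aged share was 0.341 of the young one (0.182 to 0.606). Among myeloid barcodes without high neutrophil genes (Tyrobp and Fcer1g at 0.1% of UMIs or more, S100a8 and S100a9 under 1%, together with the populations compared below) the shares were 4.55% (3.42 to 5.92) of 1143 and 1.08% (0.616 to 1.74) of 1487, a ratio of 0.237 (0.126 to 0.421). All Acp5+ Atp6v0d2+ barcodes were counted here, although 6 of the 52 young ones were under the 0.1% cut. A further limit is that 2 young ones reached 1% of S100a8 and S100a9, and 0 aged ones failed either cut. With only the 44 young and 16 aged barcodes that met both cuts, the ratio of shares of kept barcodes was 0.403 (0.212 to 0.728). The aged share was the lower one in each case, by more than counting error. Whether it would be lower in other mice of these ages cannot be told from 1 library each.

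**Figure D1:**
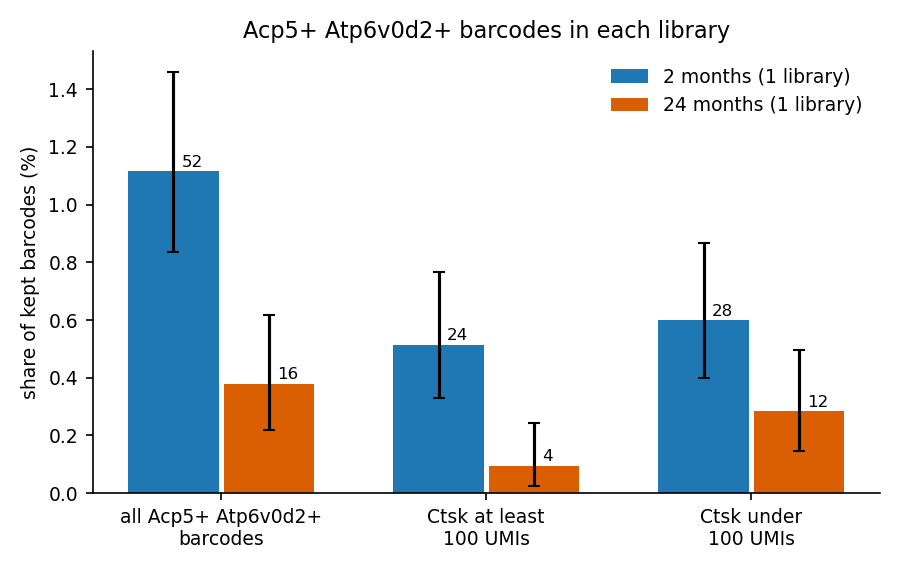
Share of kept barcodes that were Acp5+ Atp6v0d2+ in the young and the aged library, in percent. The part holding at least 100 Ctsk UMIs and the part holding fewer are also shown separately. Bar heights are shares, and error bars are exact 95% binomial intervals for counting error. The share of all such barcodes was 1.12% in the young and 0.380% in the aged library.

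The values that chose these barcodes are given as a description. Acp5, at chromosome 9, 22126727 to 22135711 on the minus strand of GRCm38, ranged from 3 to 520 UMIs with a median of 67 in the young barcodes, and from 3 to 186 with a median of 12 in the aged ones. Atp6v0d2, at chromosome 4, 19876841 to 19922605 on the minus strand, ranged from 3 to 155 UMIs with a median of 19 in the young barcodes. In the aged ones it ranged from 3 to 55 with a median of 12.5. Just inside the rule, with 1 of the genes at 3 UMIs, were 9 young and 4 aged barcodes, whose highest Ctsk counts were 8 and 1 UMIs. Just outside, with 1 of the genes at 2 UMIs, were 7 young and 10 aged barcodes, whose highest Ctsk counts were 1 and 51. In the young library 1 barcode met the counts but failed the collagen limit, and none did in the aged library. No barcode sequence of these cells was among the 3 that occurred in both libraries.

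Acp5+ Atp6v0d2+ barcodes were compared with the other kept barcodes that carried macrophage genes, 428 young and 676 aged, defined by Tyrobp and Fcer1g at 0.1% of UMIs or more together and C1qa, C1qb and C1qc at 0.2% or more together. They are called C1q-positive macrophage barcodes here. These were chosen for C1q, so genes that vary with C1q in macrophages are higher in them in part by that choice. The Acp5+ Atp6v0d2+ barcodes were about as deep in both libraries, with medians of 35288 UMIs and 5272.5 genes in the young and 35477 UMIs and 5241 genes in the aged. The C1q-positive macrophage barcodes were shallower, with medians of 17407.5 and 14111.5 UMIs. Levels are given as CPM, the UMIs of a gene per 1000000 summed UMIs of a group of barcodes, and a gene counted as higher or lower where the ratio reached 2-fold in both libraries. In the summed counts 545 of 7558 genes tested (7.21%) were higher and 459 (6.07%) were lower in the Acp5+ Atp6v0d2+ barcodes. The median of all genes on the log2 ratio scale was 0.12 in the young and 0.02 in the aged library. Scaling by trimmed mean of M-values (TMM) moved these medians to -0.10 and -0.15 and turned the split to 353 higher and 672 lower genes.

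Of 15 genes that define osteoclasts and that the rule did not use, 13 were abundant enough to test. 8 of them were higher in the Acp5+ Atp6v0d2+ barcodes in both libraries, none was lower, and the median log2 ratio over the 13 was 4.32 in the young and 2.68 in the aged library. Since Acp5 and Atp6v0d2 belong to the same gene programme, barcodes chosen for them were likely to differ in it, and the values describe by how much.

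Among the secreted proteases, Ctsk lies at chromosome 3, 95499256 to 95509362, on the plus strand. It ranged from 0 to 833 UMIs with a median of 36 in the young barcodes and from 0 to 487 with a median of 7.5 in the aged ones. Both libraries thus held barcodes without a transcript of the protease beside barcodes rich in it. In the sums it reached 4185 CPM against 49.1 in the young C1q-positive macrophage barcodes, 85.3-fold (77.2 to 94.4), and 2529 against 24.6 CPM in the aged, 103-fold (90.1 to 117). Mmp9, at chromosome 2, 164940780 to 164955850 on the plus strand, ranged from 0 to 336 UMIs with a median of 9.5 in the young and from 0 to 91 with a median of 0 in the aged. Its sums were 1154 against 38.1 CPM in the young library, 30.3-fold (26.9 to 34.1), and 223 against 12.8 in the aged, 17.5-fold (13.6 to 22.5), which was 4.79-fold without the aged barcode that held 91 of the 122 UMIs. These genes were not restricted to Acp5+ Atp6v0d2+ barcodes. Collagen-rich barcodes, with the 3 collagen genes at 2% of UMIs or more and few myeloid UMIs, carried Ctsk at 836 CPM in the young and 425 in the aged library. S100a8/S100a9-rich barcodes, with these neutrophil genes at 1% of UMIs or more, carried Mmp9 at 118 and 145 CPM.

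Slc9b2, at chromosome 3, 135307700 to 135345387 on the plus strand, encodes a sodium and proton exchanger of osteoclasts and showed the largest ratio of the list in both libraries. It reached 174 CPM against 0.481 in the young library, 362-fold (140 to 1335), and 93.3 against 0.274 in the aged, 341-fold (110 to 1709). The comparison groups held only 4 and 3 UMIs of it, which sets the width of these intervals. Collagen-rich barcodes carried it at 7.78 and 4.99 CPM.

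The fusion genes Dcstamp and Ocstamp were higher in both libraries. Dcstamp, the receptor-like protein needed for osteoclast fusion, was at 102 against 3.25 CPM in the young library, 31.3-fold (20.9 to 48.7), and at 14.6 against 2.28 in the aged, 6.42-fold (2.50 to 14.7). Its partner Ocstamp was at 108 against 4.21 CPM, 25.7-fold (17.9 to 37.8), and at 32.9 against 3.46, 9.51-fold (5.11 to 17.1). Of the Dcstamp UMIs of the young barcodes, 73 came from 1 barcode of 87089 UMIs that held 14 Ctsk and 1022 Mmp12 UMIs, and without the top barcode of each library the ratios of Dcstamp were 21.4 and 3.50 and those of Ocstamp 22.4 and 3.46. In the wider list of 19 tested fusion and multinucleation genes, 4 were higher and 2 lower, with medians of -0.26 and -0.09 against 0.12 and 0.02 for all genes. The list as a whole therefore did not stand above the background, while Dcstamp and Ocstamp did. Adam9 and Cd81, a membrane protease and a tetraspanin, had the lowest ratios, 0.437 and 0.174 in the young and 0.348 and 0.624 in the aged library.

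Nfatc1, the master transcription factor of osteoclasts, ranged from 0 to 119 UMIs with a median of 10 in the young and from 0 to 79 with a median of 2.5 in the aged barcodes. Its sums were 386 against 19.4 CPM in the young library, 19.9-fold (16.8 to 23.8), and 375 against 27.0 in the aged, 13.9-fold (11.6 to 16.7). In the aged library 1 barcode held 79 of the 205 UMIs, and without it the level was 248 CPM, 9.21-fold. Ppargc1b, a coactivator of mitochondrial biogenesis, was 21.2-fold higher (14.7 to 31.6) in the young and 4.84-fold (2.50 to 8.79) in the aged library, where it was 2.61-fold without the top barcode. Of the 25 tested genes of osteoclast transcription and signalling, 3 were higher and 1 lower, with medians of -0.02 and -0.26. Fosl1, an AP-1 subunit, was the one lower gene, at 0.249 and 0.491 of the level in C1q-positive macrophage barcodes. Vav3, a guanine nucleotide exchange factor, was at 0.347 and 0.563.

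Genes known to restrain osteoclast formation lay lower. Of 9 tested repressors, none was higher and 4 were lower, Bcl6, Rbpj and Id3 among them, with medians of -1.52 and -0.89. Bcl6, a transcriptional repressor, was at 0.350 of the comparison level in the young and 0.353 in the aged library, and Rbpj, the effector of Notch signalling, at 0.336 and 0.345. Id3 was at 0.120 and 0.124 of the comparison level, while Cd200r1 and Id2 had the highest ratios of the list, 0.704 and 0.744 in the young and 0.870 and 0.603 in the aged library. With all myeloid barcodes without high neutrophil genes as the comparison, which are not chosen for C1q, 3 repressors were lower, all of them among the 4, with medians of -1.51 and -0.69.

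The receptors did not move as one. Itgb3, the β3 chain of the integrin with which osteoclasts attach, was at 30.4 against 3.61 CPM in the young library, 8.42-fold (5.37 to 13.5), and at 38.4 against 1.91 in the aged, 20.1-fold (10.4 to 38.6), or 11.5-fold without the aged barcode with the most UMIs. Collagen-rich barcodes carried it at 48.2 and 43.9 CPM, so it did not set these cells apart from collagen-rich ones. The RANK gene Tnfrsf11a was near the macrophage level, at 116 against 88.2 CPM, 1.31-fold, in the young library and 78.7 against 106, 0.745-fold, in the aged. Src, a kinase needed for the ruffled border, was 2.67-fold (2.13 to 3.33) and 3.90-fold (2.62 to 5.66) higher. Among the 11 tested receptors and adaptors 1 was higher and none lower. Adgre5 had the next highest ratios, 1.68 and 1.90, and P2rx7 and Ifngr1 the lowest, 0.424 and 0.560 in the young and 0.706 and 0.509 in the aged. Oscar, a collagen receptor of osteoclasts, had 34 UMIs in 8 young barcodes and none in the young C1q-positive macrophage barcodes, at least 45.4-fold higher against a floor of 3 counts in that group. It had no UMI in the aged Acp5+ Atp6v0d2+ barcodes, and the calcitonin receptor Calcr had none in either library.

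Acid secretion rested on few of its genes. Car2, the carbonic anhydrase that supplies protons, was at 109 against 4.81 CPM in the young library, 22.7-fold (16.1 to 32.6), with UMIs in 23 barcodes. In the aged library it had 2 UMIs in 1 barcode, 3.66 against 1.91 CPM, a ratio of 1.91 (0.217 to 7.82). Tcirg1, the a3 subunit of the osteoclast proton pump, was 2.15-fold (1.94 to 2.38) higher in the young and 1.80-fold (1.48 to 2.16) in the aged library. The chloride transporter Clcn7 and its partner Ostm1 were at 1.28 and 1.29 in the young and 0.642 and 0.785 in the aged. Of 17 tested proton pump subunits 1 was higher, Atp6v0c, at 2366 against 970.1 CPM and 1625 against 773, and none was lower. Without its top barcode the aged ratio of Atp6v0c was 1.84, under 2-fold. The medians of 0.64 and 0.58 lay above those of all genes, and under TMM scaling no subunit reached 2-fold in both libraries. Atp6v1b2 followed at 2.92-fold and 1.71-fold. The d1 isoform Atp6v0d1, which other cells use in place of d2, was at 0.826 and 0.696 of the macrophage level, and Atp6v0a1 at 0.463 and 0.876. Lamp1 and Lamp2, membrane proteins of lysosomes, had the lowest ratios among 14 acid secretion and vesicle genes, 0.396 and 0.385 in the young and 0.587 and 0.542 in the aged. No gene of 27 lysosomal hydrolases was higher or lower. Gusb and Pld3 had the highest ratios, 1.53 and 1.09 in the young and 1.23 and 1.67 in the aged, and Lgmn and Ctsc the lowest, 0.343 and 0.322 against 0.567 and 0.511.

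**Figure D2:**
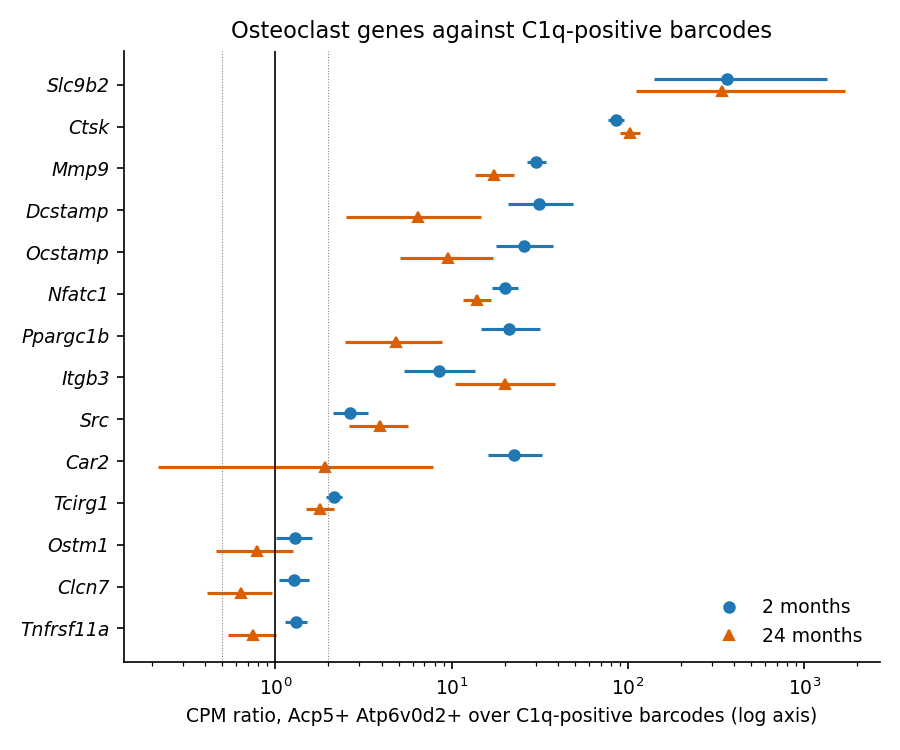
Ratio of CPM from summed UMIs in Acp5+ Atp6v0d2+ barcodes over C1q-positive macrophage barcodes, on a log axis, for the tested osteoclast genes and Ppargc1b in the young and the aged library; bars are exact 95% intervals for counting error. Slc9b2, Ctsk, Mmp9 and Nfatc1 were over 10-fold higher in both libraries, while Tnfrsf11a, Clcn7 and Ostm1 lay near 1.

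Because the Acp5+ Atp6v0d2+ barcodes were deeper, detection was also compared after every barcode had been thinned at random to 5000 UMIs, with shallower barcodes left out. This left out none of the Acp5+ Atp6v0d2+ barcodes, 25 young and 92 aged C1q-positive macrophage barcodes, 31 and 27 collagen-rich and 484 and 524 S100a8/S100a9-rich ones. At that depth Ctsk was found in 39 of the 52 young barcodes (75.0%, 61.1 to 86.0) and 8 of the 16 aged ones (interval 24.7% to 75.3%), and before thinning in 86.5% and 62.5%. In C1q-positive macrophage barcodes it was found in 10.9% and 7.36% (24.5% and 16.4% before thinning). S100a8/S100a9-rich barcodes, which had a median depth of 5956 and 4361 UMIs, showed it in 4.83% and 2.13%, and collagen-rich barcodes, with medians of 43343 and 52487 UMIs, in 88.5% and 78.3%. Ctsk alone thus does not mark the Acp5+ Atp6v0d2+ barcodes among all wound cells. Slc9b2 was found in 19 of 52 young and 4 of 16 aged barcodes after thinning (55.8% and 31.2% before), against 0.496% and 0.342% of C1q-positive macrophage barcodes. Mmp9 was found in 26 of 52 and 2 of 16 (69.2% and 31.2% before), against 8.93% and 3.94%, and in 34.7% and 38.0% of S100a8/S100a9-rich barcodes. Nfatc1 was found in 28 of 52 and 10 of 16 (78.8% and 68.8% before), against 7.94% and 10.6%. In the young library it was also found in 27.3% of collagen-rich and 12.5% of S100a8/S100a9-rich barcodes, so it was not restricted to Acp5+ Atp6v0d2+ ones. At equal depth the shares of these 4 genes were thus higher in Acp5+ Atp6v0d2+ than in C1q-positive macrophage barcodes, with only 2 aged barcodes behind the value for Mmp9. A further comparison took only those C1q-positive macrophage barcodes at or above the 10th percentile of UMIs of the Acp5+ Atp6v0d2+ ones. Against these, 8 of 13 osteoclast genes were again higher, with medians of 4.24 and 2.49. They were nearer in depth but still shallower, with medians of 27143.5 and 22722.5 UMIs.

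Within the population the barcodes were divided into ranges of Ctsk at 100 UMIs, a cut placed at a gap after the values were seen. No young barcode held between 55 and 105 Ctsk UMIs and no aged one between 27 and 123. At 100 UMIs or more were 24 young barcodes, from 105 to 833, and 4 aged ones, from 123 to 487. Below it were 28 young barcodes, from 0 to 55, and 12 aged ones, from 0 to 27. The barcodes of the upper range held 96.7% and 94.3% of all Ctsk UMIs of the population. They were also deeper, with medians of 42961 and 51267.5 UMIs against 30246.5 and 29986 in the lower range. On the CPM scale of single barcodes the ranges did not overlap, with lowest values of 2824 and 2169 above highest values of 1966 and 558. Because the cut was placed at a gap, this is no further evidence of separate groups. The young gap, from 1966 to 2824 CPM, was narrow beside values that reached 15941 CPM. Whether Ctsk falls into distinct groups or varies continuously was not tested.

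Most other osteoclast genes were found more often in the Ctsk-high barcodes, which is given as a description since the division came from the data. Mmp9 had UMIs in 24 of 24 young Ctsk-high barcodes, with a median of 69.0 and a range of 7 to 336, and in 12 of 28 Ctsk-low ones, with a range of 0 to 17. In the aged library it had UMIs in 4 of 4, from 1 to 91, and in 1 of 12, with 1 UMI. The aged barcode with the most Ctsk, 487 UMIs, had that single lowest Mmp9 count, so the proteases did not rise together in every cell. Slc9b2 was found in 23 of 24 against 6 of 28 in the young library and in 3 of 4 against 2 of 12 in the aged. Car2 was found in 21 against 2 young barcodes, and in 1 against 0 aged ones. Itgb3 was found in 16 against 2 and in 3 against 1. Ocstamp was found in 20 against 7 and in 3 against 1, and Dcstamp in 16 against 6 and in 2 against 0. Young Dcstamp was nonetheless at 94.6 CPM in Ctsk-high and 110.2 in Ctsk-low barcodes, or at 74.5 and 36.9 without the top barcode of each range. The 6 young Ctsk-low barcodes with Dcstamp held 105 of its 211 young UMIs. Each of these 6 also held 155 to 1022 Mmp12 UMIs and no Slc9b2 UMI, so Dcstamp did not go with Slc9b2 there. Nfatc1 was less divided, at 610 CPM in the Ctsk-high against 124 in the Ctsk-low young barcodes and 413 against 353 in the aged. In the aged Ctsk-low barcodes 79 of the 121 Nfatc1 UMIs came from 1 barcode. With Ctsk-high barcodes alone, 10 of 13 osteoclast genes were higher than in C1q-positive macrophage barcodes, with medians of 4.86 and 3.94. With Ctsk-low barcodes alone 4 of 11 were, with medians of 0.88 and 0.90.

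**Figure D3:**
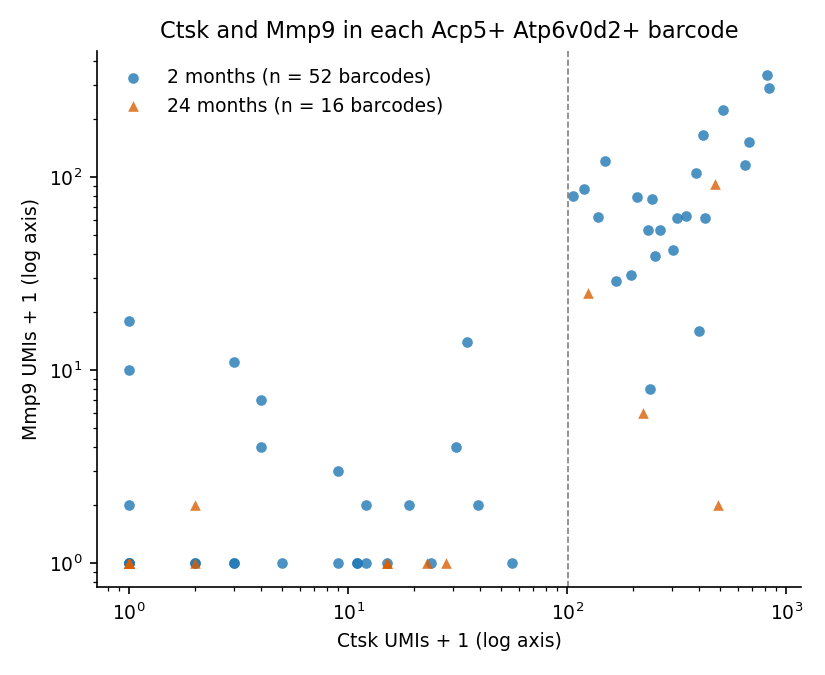
Ctsk UMIs against Mmp9 UMIs in each Acp5+ Atp6v0d2+ barcode of the young (52) and the aged (16) library, on log axes after adding 1, with a dashed line at 100 Ctsk UMIs. All 24 young and 4 aged barcodes to the right of the line had Mmp9, against 12 of 28 and 1 of 12 to its left.

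Most Ctsk-low barcodes carried macrophage genes. The genes of this comparison were chosen after their values were seen, apart from those that the lists name by rule. Mrc1, the mannose receptor, had UMIs in 21 of 28 young and 9 of 12 aged Ctsk-low barcodes, against 1 of 24 and 2 of 4 Ctsk-high ones. Apoe, the lipid carrier, was at 5378 CPM in the Ctsk-low against 399 in the Ctsk-high young barcodes, and at 7680 against 1946 in the aged. C1q at 0.2% of UMIs or more was seen in 11 young and 7 aged Ctsk-low barcodes and in no Ctsk-high one. H2-Aa, an MHC class II chain, was at 1791 against 279 CPM in the young and 2547 against 34.4 in the aged library. Without the top barcode of each range the young values were 879 and 76.5 CPM. H2-Aa had UMIs in 16 of 28 young Ctsk-low barcodes, with a median of 1 UMI. Mmp12, the macrophage elastase, was at 2998 against 28.6 CPM in the young, and in the aged at 1052 CPM with no UMI in the Ctsk-high barcodes. It had UMIs in 13 of 28 young and 7 of 12 aged Ctsk-low barcodes. Of the Ctsk-low barcodes, 22 of 28 young and 11 of 12 aged had C1q at 0.2% or more, H2-Aa at 1000 CPM or more, or Spp1 at 1000 CPM or more. Taken singly, C1q was met by 11 and 7, H2-Aa by 6 and 6, and Spp1 by 13 and 4. Among Ctsk-high barcodes H2-Aa reached that level in 1 young and 0 aged ones. Spp1 reached it in 2 of 24 young and 3 of 4 aged ones, so it did not set the aged ranges apart. Spp1, which encodes osteopontin, was carried unevenly: 1 aged barcode held 4005 of the 4398 UMIs of the aged Ctsk-low barcodes, whose median was 266 CPM against 2215 in the Ctsk-high ones. Acp5 reached 40 UMIs in 7 young Ctsk-low barcodes, which held 6 to 18 Nfatc1 UMIs, and in 1 aged one, which held 79, so some Ctsk-low barcodes carried part of the osteoclast programme.

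The name osteoclast-like was therefore borne out by most defining genes in the Ctsk-high barcodes, but not in the Ctsk-low ones as a group. Of 11 tested there, 4 were higher than in C1q-positive macrophage barcodes. Below that level were Mmp9 in the aged library (2.91 against 12.8 CPM) and Itgb3 in the young (2.10 against 3.61). Nfatc1 was at 124 CPM in young and 353 in aged Ctsk-low barcodes, against 19.4 and 27.0 in C1q-positive macrophage barcodes. Of the 121 aged Nfatc1 UMIs, 79 came from 1 barcode. All that follows is given for the population that the rule chose, with the 2 ranges apart where they differ. Outside it, 6 young and 4 aged barcodes with little collagen also held at least 100 Ctsk UMIs. The young ones had between 391 and 743 UMIs of the fibroblast gene Dcn and no Mmp9, and so did 1 aged barcode, with 805. The other 3 aged ones had the myeloid genes and no Mmp9 UMI, and 1 of them held 15 Acp5, 59 Nfatc1 and 7 Slc9b2 UMIs but no Atp6v0d2.

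**Figure D4:**
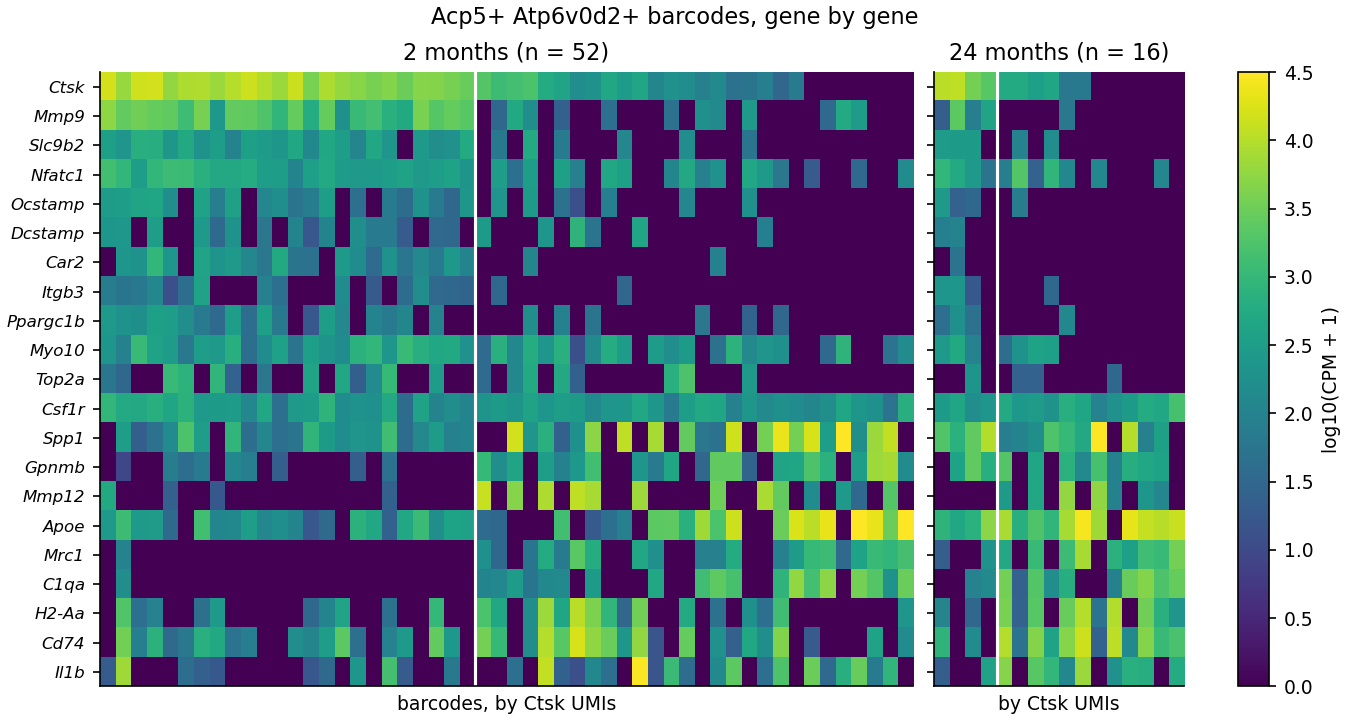
Heat map of 21 genes (rows) in the 52 young and 16 aged Acp5+ Atp6v0d2+ barcodes (columns, ordered by Ctsk), coloured by CPM of each barcode on a log scale after adding 1. The osteoclast genes Mmp9, Slc9b2 and Car2 lie at the Ctsk-high end, and Mrc1 and C1qa toward the other. Mmp12 lies mostly in Ctsk-low barcodes, in the young library mostly in the middle of the order and not at its end.

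Several mitochondrial genes were among the 15 highest by the rule for named genes. It asked for an interval beyond 2-fold in both libraries and at most 20% of the UMIs in 1 barcode. This left out Slc9b2, Ctsk, Mmp9, Nfatc1, Lpl and Mmp12, whose ratios were larger. Their top aged barcodes held 33.3%, 35.2%, 74.6%, 38.5%, 44.8% and 62.6% of the aged UMIs. The first of the genes that remained was Mrpl12, a protein of the mitochondrial ribosome. It was at 187 against 28.4 CPM in the young library, 6.59-fold, and 139 against 31.0 in the aged, 4.49-fold. Mdh2, the malate dehydrogenase of the citric acid cycle, was at 453 against 84.8 CPM, 5.34-fold, and 340.3 against 86.4, 3.94-fold. The prohibitin Phb2 was 4.47-fold and 3.57-fold higher, and its partner Phb was at 97.4 against 19.5 CPM in the young and 69.5 against 20.2 in the aged library. Ndufv1, a complex I subunit, was 5.60-fold and 3.41-fold higher, and Sdhb, a complex II subunit, 3.40-fold and 3.36-fold. Tars2, Tmem70, C1qbp and Tomm5, which also encode mitochondrial proteins, were among the 15 named, with C1qbp at 5.47-fold and 3.27-fold. The others were Sdc1, a heparan sulfate proteoglycan (4.16 and 5.11), the calcium-binding S100a4 (4.62 and 3.14), the sialyltransferase St8sia4 (5.04 and 2.86), Ddx39a (3.50 and 3.86) and Nhp2 (3.53 and 3.12).

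Genes of the respiratory chain and of mitochondrial biogenesis moved with them. Of 19 tested, 12 were higher and none lower, with medians of 1.69 and 1.18, and under TMM scaling 10 were higher. Nrf1 and Cox6a1 had the lowest ratios, 0.687 and 2.12 in the young and 0.675 and 1.43 in the aged library. In Ctsk-high barcodes alone 16 of 19 were higher, with medians of 2.18 and 1.86, and in Ctsk-low ones 1 of 18, with medians of 0.83 and 0.60. Mitochondrially encoded transcripts made up a median of 1.88% of UMIs in the young and 1.23% in the aged barcodes, against 1.33% and 1.09% in C1q-positive macrophage barcodes. Of the iron genes, Tfrc, the transferrin receptor, was 4.77-fold and 2.28-fold higher (1.46 in the aged library without the top barcode), Ncoa4 was at 2.20 and 1.34, and Trf was at 0.206 and 0.651, with 1 of 11 genes higher and 1 lower.

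Proliferation genes were higher in the young library, and in the aged one on single barcodes. Of 12 tested, 4 were higher (Top2a, Cdk1, Mcm5 and Mcm6) and none lower, with medians of 2.55 in the young and 0.53 in the aged library. Mcm6, a subunit of the replicative helicase, was 5.30-fold and 5.92-fold higher. The mitotic kinase Cdk1 was 7.13-fold higher (5.06 to 10.1) in the young library and 3.65-fold (0.914 to 10.7) in the aged, where it had 4 UMIs. In the aged library single barcodes carried these sums, and without the barcode with the most UMIs of the gene the aged ratios were 0.658 for Top2a, 1.03 for Cdk1, 0.461 for Mcm5 and 1.94 for Mcm6. None of the 4 was then 2-fold higher there, while the young ratios were 5.19, 6.19, 3.91 and 4.32. Mki67 and Pcna had the lowest ratios, 1.68 and 1.10 in the young and 0.789 and 1.14 in the aged. Top2a, the topoisomerase of dividing cells, was looked at by barcode after its values were seen. At least 10 UMIs of it were found in 11 of 52 young barcodes, 21.2% (11.1 to 34.7), and in 1 of 16 aged ones, 6.25% (0.158 to 30.2). The share was 0.935% (0.255 to 2.38) in young C1q-positive macrophage barcodes. It was 2.70% (0.741 to 6.78) in the 148 of them at or above the 10th percentile of UMIs of the Acp5+ Atp6v0d2+ barcodes. These 148 were still shallower, with a median of 27143.5 against 35288 UMIs, so depth was only partly matched. Of the 11 young barcodes 6 were Ctsk-high. Proliferation genes and Ctsk were thus found in the same barcodes in some cases. Barcodes that hold 2 cells were not told apart from fused cells here.

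Genes of proteolysis, lipid handling and cell-to-cell signals were mixed. Of 14 matrix proteases and inhibitors 3 were higher (Ctsk, Mmp9 and Mmp12) and 3 lower (Mmp8, Serpinb2 and the inhibitor Timp1). Mmp8 was at 0.109 and 0.414, and Serpinb2 at 0.0602 and 0.393. Of 19 lipid-associated and giant cell genes 4 were higher and none lower, with medians of 0.25 and 0.74. Lpl, the lipoprotein lipase, was 8.59-fold and 9.12-fold higher and Mmp12 6.96-fold and 5.70-fold, while Apoe was at 0.216 and 0.506 and Plin2 at 0.583 and 0.815. In the aged library these sums leaned on single barcodes, and without the barcode with the most UMIs of the gene Lpl was 5.43-fold and Mmp12 2.30-fold higher. Lpl and Mmp12 had more CPM in Ctsk-low than in Ctsk-high barcodes in both libraries. Spp1 did so in the young library, at 5965 against 327 CPM, and in the aged at 12818 against 3962, which turned to 1297 against 1847 without the top barcode of each range. With Ctsk-low barcodes alone 10 of 19 were higher, with medians of 1.22 and 1.16, against medians of -2.17 and 0.08 in Ctsk-high barcodes. Among 14 factors by which osteoclasts are known to signal to bone-forming cells, Pdgfb was 3.24-fold and 2.44-fold higher (1.69 in the aged library without the top barcode) beside Ctsk, which the list also holds, and 4 were lower. Tnfsf9, the 4-1BB ligand, was at 0.187 and 0.0435.

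Macrophage and inflammatory genes lay lower, with the reserve that the comparison group was chosen for C1q. Of 18 resident and alternative macrophage genes 12 were lower and none higher, with medians of -3.26 and -1.57. Cd163, the haemoglobin scavenger receptor, was at 2.89 against 229 CPM in the young library, a ratio of 0.0126, and 9.15 against 121 in the aged, 0.0757. Retnla was at 4.01 in the young library, on few UMIs, and at 0.687 in the aged, and Chil3 at 0.249 and 1.91. Against all myeloid barcodes without high neutrophil genes 11 of 18 were lower, 9 of them shared with the 12, with medians of -2.44 and -1.16. Of 22 inflammatory genes 18 were lower, with Ccl7 at 0.0223 and 0.0775 and the feedback genes Nfkbia (0.600 and 0.763) and Tnfaip3 (0.351 and 0.579) closest to the comparison level. Of 14 monocyte genes 5 were lower and S100a4 was higher, with Plac8 at 0.0837 and 0.0130.

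Interferon-induced genes had the lowest young median among the lists in the plot of list medians, which leaves out the markers of other cell types. Of 17 tested 12 were lower and none higher, with medians of -3.37 and -1.91. Rsad2, the antiviral viperin, was at 12.1 against 567 CPM in the young library, a ratio of 0.0213, and at 9.15 against 303 in the aged, 0.0302. Ifit1 was at 0.0157 and 0.0287, while Gbp3 (0.974 and 0.992) and Bst2 (0.541 and 0.640) stayed closer to the comparison level. Ifit1, Rsad2, Ifit2, Ifi213 and Ifi206 were among the 10 lowest genes by the rule for named genes, beside Lyve1, Siglec1, Cp, Cd163 and Ccl12. Against all myeloid barcodes without high neutrophil genes 10 of 15 interferon genes were lower, with medians of -2.21 and -1.79. In Ctsk-low barcodes alone the medians were -2.47 and -1.49, so the lower level was seen in those barcodes too.

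MHC class II genes depended on the range of Ctsk. Over all Acp5+ Atp6v0d2+ barcodes none of 6 genes was higher or lower in both libraries, with medians of -0.35 in the young and 0.65 in the aged. In Ctsk-high barcodes the medians were -1.83 and -3.46, and in Ctsk-low ones 0.51 and 1.30. H2-Aa and Cd74 had the lowest ratios, 0.717 and 0.690 in the young and 1.56 and 1.39 in the aged, and H2-DMb1 and H2-DMa the highest, 1.48 and 0.891 against 2.28 and 2.03.

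The senescence genes, the subject of the study, gave no common direction. Of 12 tested none was higher and 2 were lower (Gdf15 and Bcl2l1), with medians of 0.13 and -0.53, and under TMM scaling the young median turned to -0.09. Gdf15, a stress cytokine, was at 0.112 and 0.495, and the survival gene Bcl2l1 at 0.310 and 0.431. Trp53 was at 2.30 and 1.29 and Hmgb1 at 2.30 and 1.16. Cdkn1a, the p21 inhibitor of the cell cycle, was named after its values were seen. It was at 454 against 954 CPM in the young and 531 against 1010 in the aged library. Within the population it was at 193 CPM in Ctsk-high and 761 in Ctsk-low young barcodes, and at 83.6 and 796 in the aged. Cdkn2a had 1 UMI in the young and none in the aged barcodes. Of 16 genes that dissociation can induce, 4 were lower and none higher, with medians of -0.57 and -0.71, and Atf3 was at 0.0986 and 0.388.

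**Figure D5:**
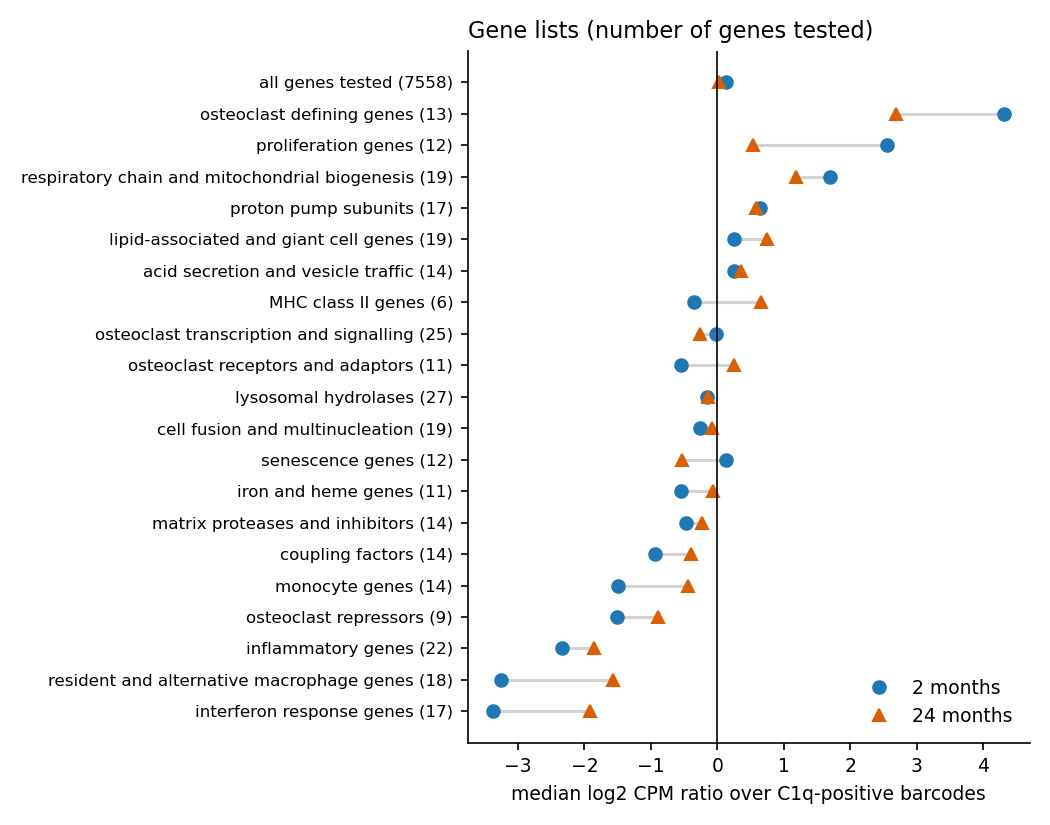
Median log2 ratio of Acp5+ Atp6v0d2+ over C1q-positive macrophage barcodes for each gene list in the young and the aged library, beside the median of all genes tested. Osteoclast genes stood at 4.32 and 2.68, the highest of the lists, and interferon genes at -3.37 and -1.91 and resident macrophage genes at -3.26 and -1.57.

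Between the ages, 1569 of 7531 genes (20.8%) were at least 1.5-fold higher and 1000 (13.3%) at least 1.5-fold lower in aged than in young Acp5+ Atp6v0d2+ barcodes. With 16 aged barcodes and 1 library per age these are counts of sums, not of tested changes. The median of all genes was 0.09, and 0.19 in C1q-positive macrophage barcodes. Ctsk-high barcodes made up 46.2% (32.2 to 60.5) of the young population, and 4 of 16 barcodes (interval 7.27% to 52.4%) of the aged one. Of all kept barcodes they were 0.515% (0.330 to 0.765) in the young and 0.0950% (0.0259 to 0.243) in the aged one, which gives a ratio of 0.185 (0.0465 to 0.537). For Ctsk-low barcodes the shares were 0.601% and 0.285%, a ratio of 0.474 (0.220 to 0.963). Both ranges were thus rarer in the aged library, and the intervals of the 2 ratios overlap. The Ctsk-high part of the population was smaller in the aged library, with intervals that overlap. Its part in the ratios between the libraries was not tested beyond the values within each range.

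Of 13 osteoclast genes 6 were lower in the aged barcodes and none higher, with a median of -0.56, and the same list had a median of -0.51 in C1q-positive macrophage barcodes. Ctsk was at 0.604 (0.570 to 0.640) of the young level over all barcodes, and at 0.855 within Ctsk-high and 0.762 within Ctsk-low ones. Mmp9 was at 0.193 (0.160 to 0.232), and at 0.287 within Ctsk-high barcodes. Nfatc1 was at 0.971 (0.829 to 1.13) over all, 0.677 within Ctsk-high and 2.85 within Ctsk-low barcodes, the last carried largely by 1 aged barcode. Car2 was among the 10 genes furthest down in the aged population, at 0.0336 (0.00404 to 0.123). Resident macrophage genes went the other way, with 12 of 14 higher in the aged barcodes, none lower and a median of 1.65, against 0.30 in C1q-positive macrophage barcodes. Lipid-associated genes were 10 of 19 higher and 1 lower, and respiratory chain genes none higher and 4 lower, with medians of 0.64 and -0.49. The lipid-associated median was 1.61 within Ctsk-high barcodes (13 of 18 higher, 1 lower) and 0.02 within Ctsk-low ones (5 of 19 higher, 2 lower), so that it lay above the median of all genes only in the former, which number 4 in the aged library. The resident macrophage median was 3.06 and 1.20 within the ranges, and the respiratory chain median -0.37 and -0.16. The value of 3.06 again rests on 4 aged barcodes. Of that list, Mrc1 fell from 59.0 to 6.81 CPM in aged Ctsk-high barcodes without the top one. All 13 Mrc1 UMIs of the young Ctsk-high barcodes came from 1 barcode. How far the other genes of the list leaned on single barcodes was not tested.

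Among the genes furthest up in the aged barcodes by the rule for named genes, Fut8, a fucosyltransferase, was 4.27-fold higher (2.37 to 7.73). It was 3.50-fold higher within Ctsk-high and 4.27-fold within Ctsk-low barcodes, so its ratio was above 3-fold in both ranges. The UDP receptor P2ry6 was 4.21-fold higher, transferrin (Trf) 3.89-fold, Asph 3.84-fold, Tnfrsf21 3.50-fold, Ift52 3.40-fold, the complement receptor C3ar1 3.31-fold, Notch1 3.25-fold and the Fc receptor Fcgr1 3.21-fold. Their ratios in C1q-positive macrophage barcodes lay between 1.12 and 1.60.

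The genes furthest down were mostly those of replicating cells. The linker histone H1f5 was at 498 CPM in the young and 9.15 in the aged barcodes, a ratio of 0.0184 (0.00595 to 0.0430), and H2ac24 at 572.5 and 40.3, a ratio of 0.0703 (0.0439 to 0.107). All 5 aged H1f5 UMIs came from 1 barcode. H2ac8 (0.0385, 0.0104 to 0.0994), Spc24 (0.0426, 0.00107 to 0.244), Pclaf (0.0457, 0.00549 to 0.168) and Tk1 (0.0643, 0.00160 to 0.372) belong to DNA replication and mitosis as well, and rested on 4, 1, 2 and 1 aged UMIs. H2ac24 was at 0.0784 within Ctsk-high and 0.0736 within Ctsk-low barcodes. Of 14 proliferation genes 11 were lower and none higher in the aged population, with a median of -2.35 against -0.68 in C1q-positive macrophage barcodes. Ddit4 (0.0277, 0.000696 to 0.157), Bbs9 (0.0593, 0.0121 to 0.176) and Cmtm4 (0.0744, 0.00185 to 0.433) completed the 10, on 1, 3 and 1 aged UMIs.

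Nearly all UMIs of RANKL and Csf1 in the wound lay in other cells. Tnfsf11, which encodes RANKL, had no UMI in the Acp5+ Atp6v0d2+ barcodes of either library, with upper limits of 1.78 CPM in the young and 6.75 in the aged. Collagen-rich barcodes held 84.2% of its kept UMIs in the young library, at 29.0 CPM (27.7 to 30.4), and 89.2% in the aged, at 14.7 CPM (13.8 to 15.6). Of the kept UMIs of all genes they held 64010885 of 111268003 in the young library and 69739896 of 107577591 in the aged. Its decoy receptor Tnfrsf11b was at 13.6 and 22.7 CPM in the same barcodes. The RANKL level was thus lower and the decoy level higher in the aged library, in single libraries. Csf1, the survival factor, was at 378 and 330 CPM in collagen-rich barcodes and 474 and 882 in S100a8/S100a9-rich ones. Acp5+ Atp6v0d2+ barcodes carried it at 22.7 and 38.4 CPM, in 8 of 52 and 2 of 16 of them. In C1q-positive macrophage barcodes it was at 20.6 and 17.0 CPM. The Csf1 receptor Csf1r was at 0.902 and 0.882 of the macrophage level in the Acp5+ Atp6v0d2+ barcodes.

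Markers of other cell types were low, with exceptions carried by few barcodes. The summed fibroblast list was at 60.8 and 49.4 CPM in the young and aged barcodes, against 590 and 277 in C1q-positive macrophage barcodes, and all 6 tested genes were lower. The neutrophil list was at 1676 against 1762 CPM in the young and 62.2 against 542 in the aged, and 72.0% of the young S100a9 UMIs came from 1 barcode. T and NK genes were at 23.2 and 1.83 CPM, dendritic genes at 33.8 and 12.8, B and plasma genes at 2.89 and 1.83, and endothelial genes at 23.6 and 36.6. Keratinocyte genes were at 9.65 and 1.83 CPM with Krt5 and Krt14 at 0, mast cell and basophil genes at 3.38 and 0, and erythroid genes at 7.72 and 0. Of the bone-lineage list, at 33.8 and 32.9 CPM, Runx2 made up 33.3 and 32.9, and Bglap, Sp7, Alpl and Ibsp had no UMI.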

How the data were processed

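Wound cells of 1 library per age were sequenced with a 10x Genomics 3′ kit. The deposited matrices hold raw UMI counts per gene and barcode, made by the authors with Cell Ranger. The file headers give its version as 8.0.1 and the submitters' processing notes as 9.0. The notes also name STAR, Seurat 4 and GRCm38/mm10. They held 4932 and 4379 barcodes with 111810068 and 107865898 UMIs, and 4661 and 4210 were kept by the filter given at the start. Because the counts come from the authors' filtered matrices, low-depth cells may already be missing. Gene positions were read from the GENCODE annotation of GRCm38. UMIs were summed over the barcodes of a group, scaled to CPM and compared with exact conditional binomial intervals; shares have Clopper-Pearson intervals. Genes with a mean of at least 10 CPM entered, without the 10 genes that defined the groups. There is no test, since cells are not replicates. The barcodes and gene lists were chosen with earlier results of these data known. Named genes were the 15 highest and 10 lowest against macrophages and the 10 highest and 10 lowest between ages with at least 50 UMIs, an interval beyond the fold and no barcode over 20% of the UMIs on the higher side, every defining osteoclast gene, and the 2 highest and 2 lowest of each list. Any other gene was named with its values already known. A gene that the rule names is not reported here. Scrublet called 3 and 2 barcodes (0.0644% and 0.0475%), too few to have worked, so no doublets were removed; 0 young and 1 aged Acp5+ Atp6v0d2+ barcodes were in the top 4% of its scores. The summing and calling steps were tested on simulated data. Python 3.11.15, numpy 2.4.6, scipy 1.17.1, pandas 2.3.3, scanpy 1.11.5, edgeR 4.0.16 (TMM factors only) and matplotlib 3.10.9 were used.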

Additional observations from a re-analysis of the deposited data

How the results depend on the processing

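No paired analysis was possible because each age had 1 library. Leaving out replicates was not possible for the same reason. The aged over young ratio of the Acp5+ Atp6v0d2+ share was under 1 in all 10 alternatives that change who is counted, from 0.185 to 0.488. The counts of genes against C1q-positive macrophage barcodes (545 higher, 459 lower) depended on who was counted: 340 and 240 with at least 2 UMIs of each rule gene, 907 and 822 with each at 200 CPM or more, 230 and 215 at a mean of 50 CPM or more, 940 higher with no filter beyond 1 UMI, 353 higher under TMM scaling and 291 lower with the mean of single barcodes. Between ages (1569 higher, 1000 lower) they were 530 and 312 at 50 CPM or more, and 1926 lower with no filter beyond 1 UMI. TMM gave 1178 and 1311. Chosen after seeing the data, barcodes with C1q under 0.2% gave 827 and 750, Ctsk-high barcodes 1021 and 882, Ctsk-low ones 223 and 271, and leaving out the deepest barcode of each library 422 and 431, of which 397 and 381 were shared with the main calls. The aged MHC class II median turned to -0.24 with each rule gene at 200 CPM and to -3.46 in Ctsk-high barcodes, and its aged over young median to -0.13 with C1q under 0.2% and -1.76 in Ctsk-high barcodes. In Ctsk-low barcodes Mmp9 and Itgb3 turned in the weaker library, to log2 ratios of -2.13 and -0.78. The causes were not tested beyond the smaller sets of barcodes or genes that the alternatives are built on. Over 598 values of 38 named genes 577 kept their side, and over 882 list medians 679 moved by little, 199 by more and 4 turned. With 16 aged barcodes, genes under a few UMIs there cannot be placed.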
